A study of Mus musculus with 5 samples.

Results

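The semaphorins, ephrins and Slits are 3 families of ligands through which cells attract or repel the processes of their neighbours, and their receptors are the plexins and neuropilins, the Eph kinases and the Robo proteins. The Unc5 proteins are repulsive receptors for netrins and were counted with them. Genes were taken by symbol: Sema, Plxna, Plxnb, Plxnc, Plxnd, Nrp, Efna, Efnb, Epha, Ephb, Slit or Robo with a number, and Unc5 with the letters a to d. Of the 16347 genes in the deposited table, 55 met this. They were 17 semaphorins, 9 plexins, 2 neuropilins, 5 ephrin-A and 3 ephrin-B genes, 6 EphA and 5 EphB genes, 2 Slit, 3 Robo and 3 Unc5 genes.

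Levels were read from 1473 single cells of 3-month-old mice, sorted into 96-well plates and sequenced by Smart-seq2, a full-length method without molecular identifiers. Cells of the FoxJ1CreERT2 R26TdT genotype, in which an inducible Cre under the promoter of the cilia factor Foxj1 switches on a red reporter, came from 4 places in 10 animals, 5 female and 5 male: the lateral ventricle, the third ventricle, the aqueduct of the midbrain and the spinal cord. Cells of the Nkx2-2Cre R26TrapC genotype, with Cre under the ventral neural tube factor Nkx2-2, came from the midbrain of 7 females. Each of the 5 samples was the only one of its kind and no label tied a cell to an animal, so no group difference has a replicate error or a p-value. No knockout entered these samples.

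Both midbrain samples were split into groups by marker level, in this order: Ccdc153 (a gene of motile cilia) at 1000 counts per 1000000 reads (CPM) or more, then Sspo (SCO-spondin of the subcommissural organ) at 500, then Mog (a myelin protein) at 500, then other. The Foxj1 line midbrain gave 317 Ccdc153-high, 196 Sspo-high and 34 other cells, and the Nkx2-2 line gave 19 Ccdc153-high, 12 Sspo-high, 243 Mog-high and 53 other cells. Samples from the lateral ventricle (240 cells), the third ventricle (245 cells) and the cord (114 cells) entered whole. A level is the reads of a gene summed over a group and scaled to 1000000 reads of that group. In the Foxj1 line midbrain 44 cells lay between 500 and 1000 CPM of Ccdc153 and 27 between 1000 and 2000, so the cut runs through a range of levels. Of its Ccdc153-high cells, 16 also reached the Sspo limit. In the Nkx2-2 line 1 Ccdc153-high cell and 1 Sspo-high cell also reached the Mog limit.

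The groups carried the markers of their names, with limits. The 7 ependymal markers summed to between 6916 CPM (spinal cord) and 13355 CPM (Nkx2-2 line Ccdc153-high) in the ciliated groups, and to 2258 and 2181 CPM in the Sspo-high groups of the Foxj1 and Nkx2-2 lines. The table's column names call the third-ventricle cells tanycytes, but the tanycyte factor Rax had 0 reads there. Column names place the lateral ventricle cells in the forebrain, and matching these 2 names to the samples rests on anatomy and on the other titles. Median reads per cell ran from 606242 to 1362236 over the groups, and median genes detected from 3553 (Nkx2-2 line other) to 5766 (Nkx2-2 line Sspo-high), with 3979.5 in the spinal cord.

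As background, semaphorins act through plexins, with neuropilins as co-receptors for the secreted class 3. Ephrin-A ligands are held to the membrane by a lipid anchor and mostly bind EphA receptors, while ephrin-B ligands span the membrane, mostly bind EphB receptors, and can signal back into their own cell. Slit proteins are secreted and repel axons and migrating cells that carry Robo, and Slit2 is known from the adult ventricular wall and from the midline of the neural tube.

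Promoter sequence is shown for 4 genes that the results turn on: Epha7 and Slit2, a receptor and a ligand found together in most Sspo-high cells, Unc5b, which was high in Mog-high cells, and Plxnb2, the highest member per length in the 4 ciliated regions. Each is the 250 bases before the RefSeq start of the gene on GRCm38.p6 (the assembly that mm10 denotes), read 5′ to 3′ in the direction of the gene. They lie at chr4:28812881-28813130 (Epha7, plus strand), chr5:47982905-47983154 (Slit2, plus), chr10:60831582-60831831 (Unc5b, minus) and chr15:89180789-89181038 (Plxnb2, minus). Capitals mark matches to the GC box GGGCGG, the TATA box TATAAA and the RFX motif GTTGCC, on either strand.
Epha7: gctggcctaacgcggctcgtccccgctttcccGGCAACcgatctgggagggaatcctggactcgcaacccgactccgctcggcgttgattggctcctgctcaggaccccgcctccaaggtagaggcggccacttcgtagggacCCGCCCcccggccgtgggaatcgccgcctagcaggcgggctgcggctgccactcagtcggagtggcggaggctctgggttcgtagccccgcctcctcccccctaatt
Slit2: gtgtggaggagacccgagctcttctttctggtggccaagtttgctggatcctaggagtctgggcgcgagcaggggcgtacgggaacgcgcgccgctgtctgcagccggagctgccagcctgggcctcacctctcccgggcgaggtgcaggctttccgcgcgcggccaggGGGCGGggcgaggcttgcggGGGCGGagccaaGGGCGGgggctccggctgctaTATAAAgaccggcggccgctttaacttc
Unc5b: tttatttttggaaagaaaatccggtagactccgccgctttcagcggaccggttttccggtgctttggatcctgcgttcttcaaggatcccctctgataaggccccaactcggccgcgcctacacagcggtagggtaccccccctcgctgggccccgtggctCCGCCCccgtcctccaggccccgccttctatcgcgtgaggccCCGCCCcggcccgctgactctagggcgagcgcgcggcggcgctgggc
Plxnb2: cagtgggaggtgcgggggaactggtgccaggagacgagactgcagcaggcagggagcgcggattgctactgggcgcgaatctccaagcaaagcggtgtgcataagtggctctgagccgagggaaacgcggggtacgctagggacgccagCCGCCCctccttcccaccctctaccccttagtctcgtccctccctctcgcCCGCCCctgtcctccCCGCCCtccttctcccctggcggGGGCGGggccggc
All 4 windows were rich in G and C, at 69.2% (Epha7), 69.6% (Slit2), 66.8% (Unc5b) and 69.2% (Plxnb2), against a median of 52.4% over 32851 RefSeq promoters. They held 25, 25, 27 and 20 CpG pairs in that order. GC boxes numbered 1 in Epha7, 3 in Slit2, 2 in Unc5b and 4 in Plxnb2, and 32.7% of all promoters hold one. Slit2 alone of the 4 had the TATA letters, 28 to 23 bases before its start, which 12.4% of promoters hold. Epha7 had the RFX letters on the minus strand, 218 to 213 bases before its start, as do 10.4% of promoters. RFX factors are known regulators of cilia genes, but a match of 6 letters is a description and no binding was measured.
Motifs of the factors in the study's title were searched in the 48 of 55 members that have a RefSeq entry, on both strands. The NFI motif TTGGCA occurred in 3 of them (Epha4, Ephb2 and Sema4b) against 12.3% of all promoters, the long NFI palindrome in 0 against 0.0365%, and the SOX motif ACAATG in 5 (Ephb1, Plxnb3, Plxnc1, Sema4a and Sema4d) against 10.7%. The forkhead motif TGTTTAC occurred in 0 against 3.17%, and the RFX motif in 7 against 10.4%. In the same search the GC box occurred in 36 members against 32.7%, and the TATA box in 2 against 12.4%. A member counted when any of its RefSeq promoters matched, while the share is over single promoters, so the measures are not alike. Matches of different motifs could overlap and were counted separately.

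Of the 55 members, 45 reached 10 CPM in at least 1 of the 10 groups. The 10 that stayed under 10 CPM in every group were Efna3, Epha1, Epha3, Epha10, Robo3, Sema3c, Sema3f, Sema4c, Sema7a and Unc5d. Plxnb1, Plxnb3 and Sema6d reached 10 CPM in all 10 groups. A further 7 did so in all 4 regional groups of ciliated cells: Efna1, Nrp2, Plxnb2, Sema3b, Sema3e, Sema4b and Sema6a.

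**Figure D1:**
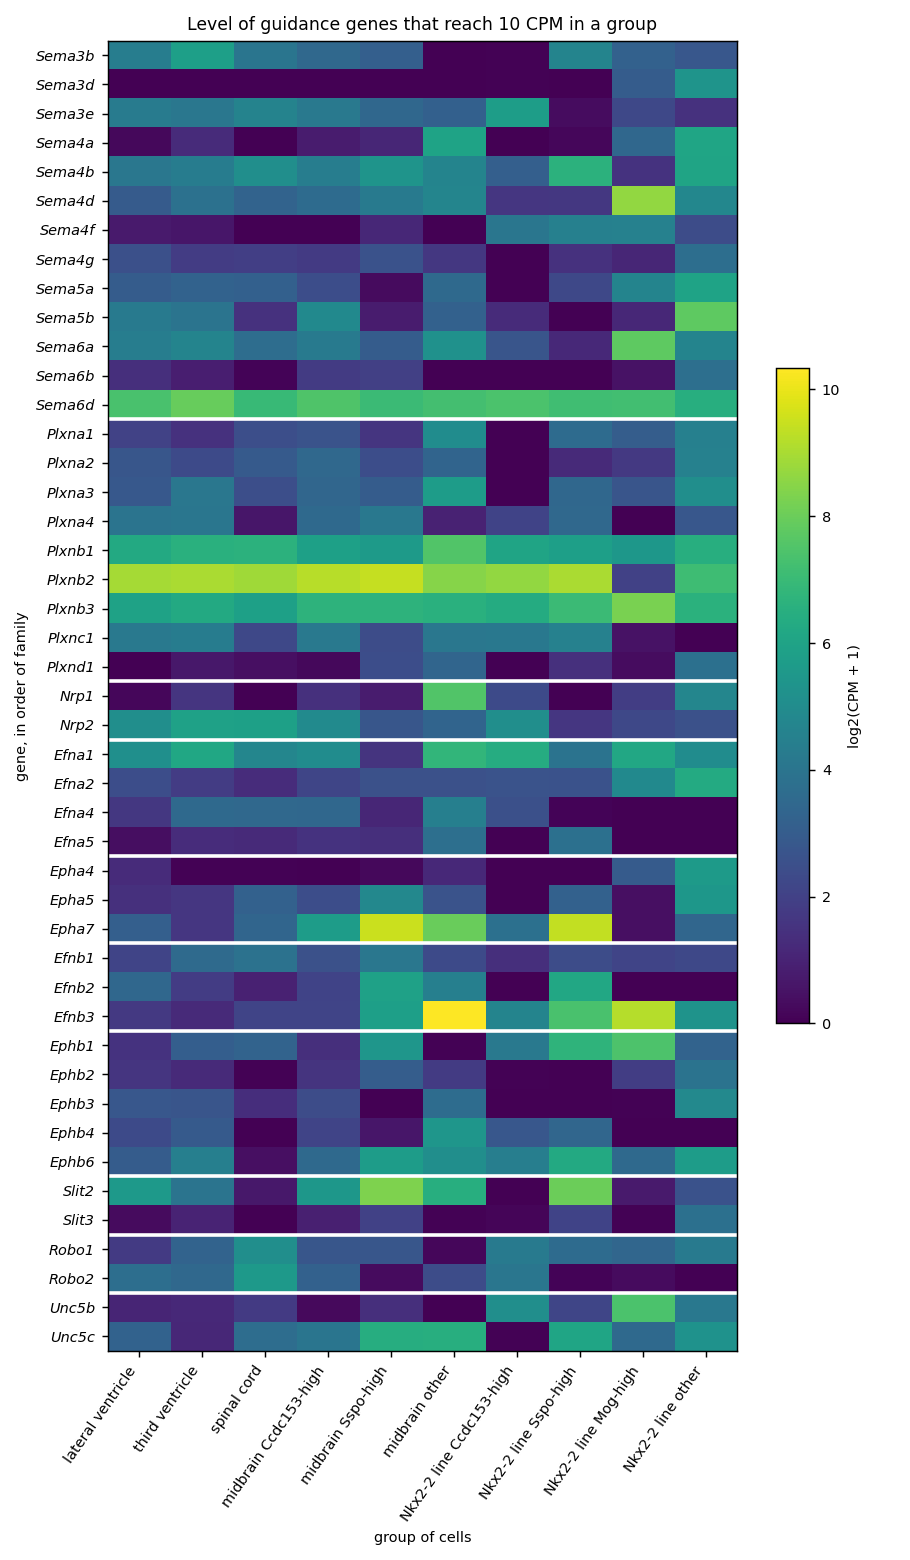
Heat map of the 45 members that reach 10 CPM in a group. Columns are the 10 groups of cells, rows are genes in order of family with white lines between families, and colour is log2(CPM + 1) of the summed reads. Plxnb2 is lowest in the Mog-high cells, Epha7 and Slit2 are high in the Sspo-high cells of both lines, and Efnb3 and Sema4d are high in the Mog-high cells.

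Plxnb2, a plexin that binds class 4 semaphorins, led the families in ciliated cells. Its level was 497 CPM in the lateral ventricle (341 to 594 over 3 blocks of 96 consecutive cell numbers), 520 in the third ventricle (402 to 681, 3 blocks), 461 in the spinal cord (457 to 469, 2 blocks) and 605 in midbrain Ccdc153-high cells (295 to 799, 7 blocks). Blocks stand for stretches of wells, which may hold other animals or plates, and are not replicates. The ranges of the 4 regions overlapped. A read was found in 97.9%, 96.7%, 90.4% and 96.5% of their cells. Midbrain Sspo-high cells had 686 CPM (267 to 861) and the Nkx2-2 line Mog-high cells 2.99 CPM (14.4% of cells with a read).

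Per kilobase of exon, the scale on which genes can be compared with each other, Plxnb2 stood at 59.8 to 78.3 CPM per kb in the 4 regions. Efna1, an ephrin-A ligand, came next with 14.2 to 38.0 CPM per kb, then Sema6d, a transmembrane semaphorin, with 11.7 to 23.2. The other plexin-B receptors, Plxnb3 (8.81 to 15.6 CPM per kb) and Plxnb1 (6.05 to 10.3), were among the next 3 in each region. Sema3b in the third ventricle (11.6) and Efna4 in the midbrain (6.31) stood above Plxnb1. Sema6d was found in 57.0% of spinal cord cells and in 80.8% to 92.7% of the cells of the other 3 regions. Plxnb2 and Sema6d reads occurred together in 85.4% of lateral ventricle cells and 78.9% of midbrain Ccdc153-high cells (62.9% and 58.0% after each cell was thinned to 20000 reads).

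The 4 ciliated regions of the Foxj1 line were compared by setting each against the mean of the other 3. A gene counts as higher or lower when its levels differed at least 2-fold with 10 CPM or more on 1 side, and the share of all genes that did so is the background. The regions share the groups they are set against, so the 4 comparisons are not independent. Epha7 and Slit2 counted in all 4, and 1 high or low region can move the mean for the others. In the spinal cord 10 of 23 members with enough reads differed, against 18.8% of all genes. In the third ventricle 8 of 23 did, against 7.6%, in the midbrain 7 of 22, against 5.29%, and in the lateral ventricle 4 of 21, against 6.04%. Members whose blocks also lay apart from those of every other region numbered 5 in the spinal cord (8.84% of all genes), 1 in the third ventricle (1.53%), 1 in the midbrain (0.257%) and 0 in the lateral ventricle (0.565%). Low genes differ more often: among genes of 10 to under 100 CPM the background was 20.4%, 8.88%, 6.24% and 6.78% in that order, against 47.6%, 38.1%, 36.8% and 21.1% of the members in that range.

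Robo1 and Robo2, the Slit receptors, were higher in the spinal cord. Robo1 stood at 33.6 CPM in the cord, 8.82 in the third ventricle, 5.77 in the midbrain and 2.37 in the lateral ventricle, a 5.95-fold difference from the mean of the other 3. Both spinal cord blocks (24.9 and 38.6) lay above all 13 blocks of the other regions. Robo2 stood at 46.2, 10.1, 8.33 and 12.5 CPM in the same order, 4.48-fold higher in the spinal cord, with blocks at 41.4 and 54.4 and the highest other block at 30.7. Reads of Robo1 were found in 21.1% and of Robo2 in 25.4% of spinal cord cells. Neither gene reached 2 CPM per kb outside the cord in these 4 groups, and both were a little above it there (2.04 and 2.72).

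Slit2, their ligand, was at the low end in the spinal cord. Its level was 45.5 CPM in the lateral ventricle (21.8 to 59.4 over blocks), 14.9 in the third ventricle (10.9 to 18.7), 43.7 in the midbrain (6.26 to 73.8) and 0.581 in the spinal cord (0.0289 and 0.899). Against the mean of the other 3 it was 59.7-fold lower in the spinal cord, 2.31-fold higher in the lateral ventricle, 2.15-fold higher in the midbrain and 2.01-fold lower in the third ventricle. The spinal cord blocks lay below every other block, while the blocks of the other 3 regions overlapped. The lateral ventricle difference fell under 2-fold with midbrain cells of the first sequencing project only or with the marker limits divided by 2 (log2 down to 0.71), and the third-ventricle difference under 6 of the alternatives. The midbrain difference was 0.85 on the log2 scale without block 2 of the lateral ventricle. Slit3 stayed at or under 1.04 CPM in all 4 regions.

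**Figure D2:**
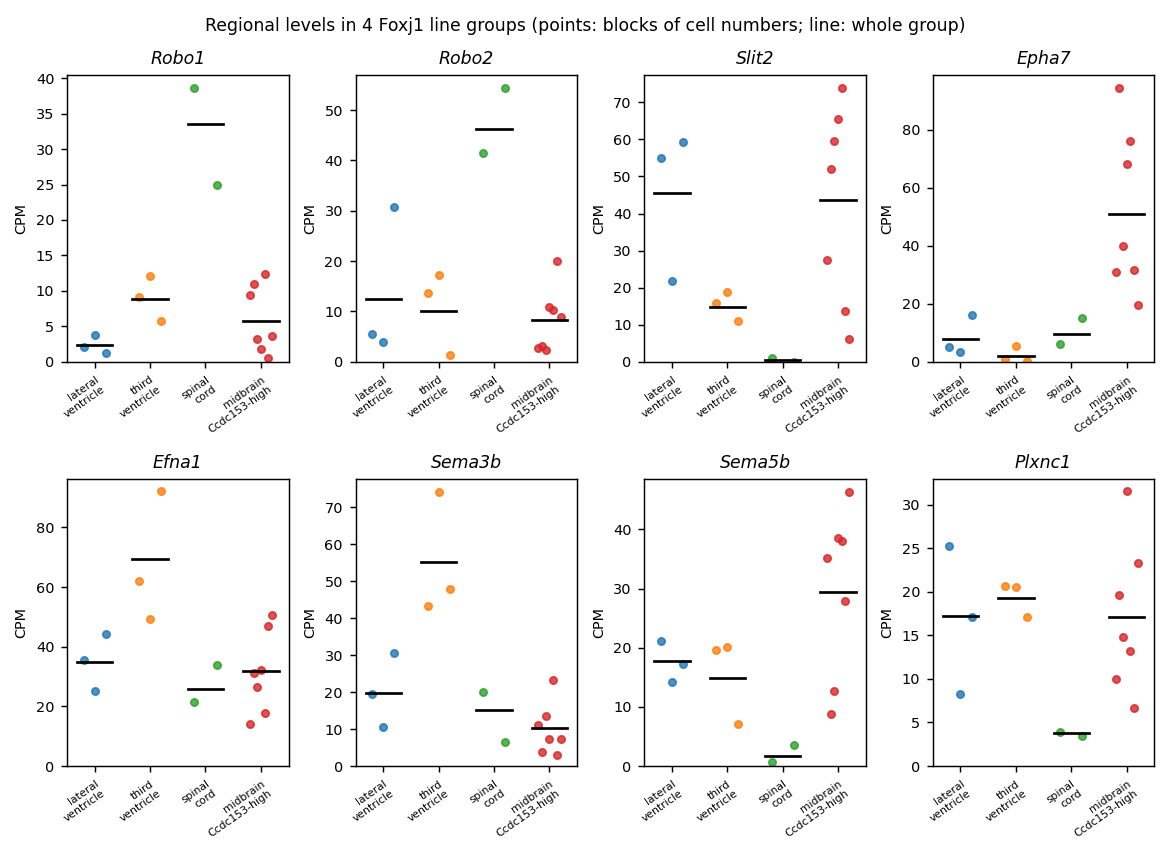
Levels of 8 members in the 4 regional groups of the Foxj1 line. Each point is 1 block of 96 consecutive cell numbers, the black line is the level of the whole group, and the vertical axis is CPM from 0. Spinal cord blocks lie apart from the others for Robo1, Robo2, Slit2, Sema5b and Plxnc1, those of the third ventricle for Sema3b and those of the midbrain for Epha7.

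Most other members that differed in the spinal cord were lower there. Sema5b, a transmembrane semaphorin, stood at 1.78 CPM there against 29.4 CPM in the midbrain, 17.7 in the lateral and 15.0 in the third ventricle (11.7-fold lower). Plxnc1, the receptor for Sema7a, stood at 3.75 CPM against 17.1 to 19.3 CPM (4.77-fold lower), and its blocks lay below those of the other regions, as did those of Sema5b. Plxna4 (0.549 CPM) was 24.7-fold lower and Ephb6, an Eph receptor without kinase activity, 35.7-fold lower (0.359 CPM). Efnb1 was 2.15-fold higher in the cord, and Epha7 2.15-fold and Plxna3 2.32-fold lower. For Efnb1, 1 cell held 35.2% of the cord reads and the difference fell to 0.79 on the log2 scale under the alternatives. The calls of Epha7 and Plxna3 ended with deposited size factors or with the mean of per-cell CPM, and that of Plxna3 also without block 2 of the cord (log2 -0.84). That of Epha7 also ended with the marker limits doubled, without Ccdc153-high midbrain cells at the Sspo limit, or without block 1 of the cord. It held in 5 of 10 settings, and its log2 difference shrank to as little as -0.11. The spinal cord also had the fewest genes detected of the 4 regions and 252 CPM of 5 neuronal markers against 4.26 to 38.1 CPM elsewhere, and the part of either in these values was not tested. Stmn2 alone made 236 of the 252 CPM, Rbfox3 had 0 reads, and Snap25, Syt1 and Tubb3 were higher in the third ventricle than in the cord.

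Sema3b, a secreted semaphorin, was higher in the third ventricle. It stood at 55.3 CPM (blocks 43.3, 74.2 and 48.0) against 19.9, 15.1 and 10.3 CPM in the lateral ventricle, spinal cord and midbrain, a 3.66-fold difference from their mean, and its lowest block lay above the highest of the others (30.6). Efna1 was 2.26-fold higher at 69.5 CPM against 34.8, 26.0 and 31.7, and was found in 42.9% of the cells there. Its blocks of 49.3 to 92.4 CPM overlapped those of the midbrain, which reached 50.5, and without block 3 of the third ventricle the log2 difference was 0.84. Ephb6 (21.0 CPM) was 3.54-fold and Plxna3 (16.2 CPM) 2.36-fold higher. Epha7 (2.11 CPM) was 10.8-fold lower, Unc5c (1.25 CPM) 9.50-fold lower, and Robo2 lay at -1.14 on the log2 scale. The Plxna3 difference fell under 2-fold with deposited size factors or the mean of per-cell CPM (log2 down to 0.89), and that of Robo2 without block 3 of the third ventricle (log2 -0.52).

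In the lateral ventricle 4 members differed, and 3 to 8 with each block left out in turn. Robo1 was 6.77-fold, Efna4 4.70-fold (2.19 CPM against 10.1 or more in each of the others) and Epha7 2.65-fold lower there than the mean of the others. Robo1 and Efna4 were also at least 2-fold below the lowest other region (0.872% of all genes). Epha7 was not, as it stood higher here than in the third ventricle. The blocks of Robo1, Efna4 and Epha7 overlapped those of other regions. The Epha7 difference shrank to as little as -0.45 on the log2 scale when midbrain cells at the Sspo limit were left out or the marker limits doubled. The 3 mural cell markers in the table summed to 829 CPM in this sample and to 99.6 to 539 CPM in the other regions, and their part was not tested. Acta2 made 728 of the 829 CPM, Tagln (101 CPM) was close to its third-ventricle level (95.6 CPM), and Pdgfrb was lowest here (0.105 CPM). Efna4 shares 168 bases of exon with a gene on the other strand, and the kit does not mark strand.

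Epha7, an EphA receptor, was highest of the regions in the midbrain, at 51.0 CPM. The spinal cord had 9.47 CPM, the lateral ventricle 7.87 and the third ventricle 2.11 CPM. The difference was 7.86-fold, and all 7 midbrain blocks (19.4 to 94.4) lay above the others, whose highest was 16.3. Against the mean of the other 3, Sema5b (2.55-fold), Slit2 and Unc5c, a netrin receptor (15.2 CPM, 2.11-fold), were also higher in the midbrain, and Robo1 (2.59-fold), Robo2 (2.75-fold) and Sema3b (2.91-fold) lower. Only Epha7 was also at least 2-fold above the highest other region (0.574% of all genes). At least 2-fold below the lowest were 0 members (0.485%), and Robo1 stood higher in the midbrain than in the lateral ventricle. Within the Ccdc153-high cells, Epha7, Slit2 and Unc5c were highest in the 16 that also reached the Sspo limit. Epha7 stood at 771 CPM in those 16, 24.8 CPM in 53 cells of 10 to under 500 CPM of Sspo and 19.8 CPM in the 248 cells under 10 CPM of Sspo. For Slit2 the levels were 220, 37.3 and 36.0 CPM and for Unc5c 121, 8.24 and 11.1 CPM in the same order. Without the 16 cells Epha7 still passed the 2-fold limit in the midbrain, and Slit2 and Unc5c did not. The log2 difference of Epha7 was 2.98 in the main setting and 1.67 at the lowest of the alternatives. Its block values above include the 16 cells.

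The Sspo-high cells of the Foxj1 line midbrain differed from their Ccdc153-high neighbours in 16 of 25 members, against 33.3% of all genes. Sspo-high cells had been chosen for low Ccdc153 and high Sspo, neither of them a member. In this comparison 9 members were higher, all of them ephrin-B ligands, Eph receptors, Slit2 or Unc5c, and 7 were lower. The share of all genes was 18.3% higher and 14.9% lower. For 7 members the blocks of the 2 groups did not overlap, against 14.3% of all genes. The 3 choroid plexus markers in the table summed to 1027 CPM in Sspo-high and 577 CPM in Ccdc153-high cells, and their part was not tested. Ttr stood at 795 against 37.5 CPM, while Folr1 (232 against 501 CPM) and Clic6 (0.0306 against 37.9 CPM) were lower in Sspo-high cells.

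Epha7 was at 721 CPM in Sspo-high cells (135 to 877 over 7 blocks) and at 51.0 CPM in Ccdc153-high cells (19.4 to 94.4), a 14.1-fold difference with blocks apart. It was found in 98.0% of the 196 Sspo-high cells, and in 94.9% after thinning to 20000 reads, against 36.9% and 12.3% of Ccdc153-high cells. Its level per length, 72.9 CPM per kb, was second among members in these cells to that of Plxnb2 (88.9). Other Eph receptors were also higher: Ephb1 at 41.8 against 1.62 CPM (25.8-fold), Epha5 at 27.1 against 4.39 CPM (6.17-fold) and Ephb6 at 50.7 against 10.4 CPM (4.87-fold). Blocks of Ephb1 and Epha5 lay apart and those of Ephb6 overlapped. Ephb1 shares 152 bases of exon with a gene on the other strand.

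All 3 ephrin-B ligands were higher in Sspo-high cells. Efnb2 stood at 59.6 against 3.22 CPM (18.5-fold) and was found in 51.0% of the cells. Efnb3 stood at 55.7 against 3.36 CPM (16.6-fold), in 38.8% of the cells, and Efnb1 at 16.1 against 4.99 CPM (3.22-fold). The blocks of Efnb2 and Efnb3 lay apart from those of Ccdc153-high cells. In the 16 Ccdc153-high cells at the Sspo limit Efnb2 stood at 59.0, Efnb3 at 44.1 and Ephb1 at 28.6 CPM, against at most 1.01, 2.38 and 0.566 CPM in the rest. Without those 16 cells the log2 ratios of Efnb2, Ephb1 and Epha7 were 6.10, 6.44 and 5.13, in place of 4.21, 4.69 and 3.82, and that of Efnb3 was also higher. Both ephrin-A ligands with enough reads were lower, Efna1 16.4-fold (1.94 against 31.7 CPM) and Efna4 8.92-fold (1.13 against 10.1 CPM). The other 3 ephrin-A genes stayed under 10 CPM in both groups. Nearly all Efna1 reads of the Sspo-high cells lay in block 6, at 20.5 CPM, with 0 to 0.331 CPM in the other 6 blocks.

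Slit2 stood at 321 CPM in Sspo-high cells (60.9 to 413 over blocks) and 43.7 CPM in Ccdc153-high cells (6.26 to 73.8), 7.36-fold higher, and in 94.4% of the cells against 30.9%. Its lowest block, of 18 cells, overlapped the Ccdc153-high range. Unc5c stood at 85.3 CPM (58.5 to 118) against 15.2 CPM (8.04 to 26.4), 5.62-fold higher with blocks apart. Of the 196 Sspo-high cells 181 had reads of both Epha7 and Slit2, and 104 of both Slit2 and Unc5c. Robo2 was at 0.220 CPM in these cells and Robo1 at 5.83 CPM, so only 12 cells held reads of Slit2 together with Robo1 and 1 with Robo2.

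None of the semaphorins, plexins and neuropilins with enough reads was at least 2-fold higher in Sspo-high cells, and 5 of them were at least 2-fold lower. Sema5b stood at 0.709 CPM in Sspo-high cells against 29.4 CPM (41.4-fold lower, blocks apart), Nrp2 was 5.26-fold lower (5.71 against 30.0 CPM), Plxnc1 3.97-fold, Sema6a 2.51-fold and Plxna2 2.26-fold lower. The Plxna2 difference fell under 2-fold with deposited size factors, and that of Sema6a without Ccdc153-high block 7 (log2 -0.81). Plxnb2, Plxnb3 and Plxnb1 differed by 0.18, 0.01 and -0.24 on the log2 scale and Sema6d by -0.44. Sema4b, at 39.2 CPM, was just under 2-fold higher (log2 0.97), and Sema4d (18.0 against 11.3 CPM) and Plxna4 (16.8 against 10.5 CPM) both lay at 0.68.

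**Figure D3:**
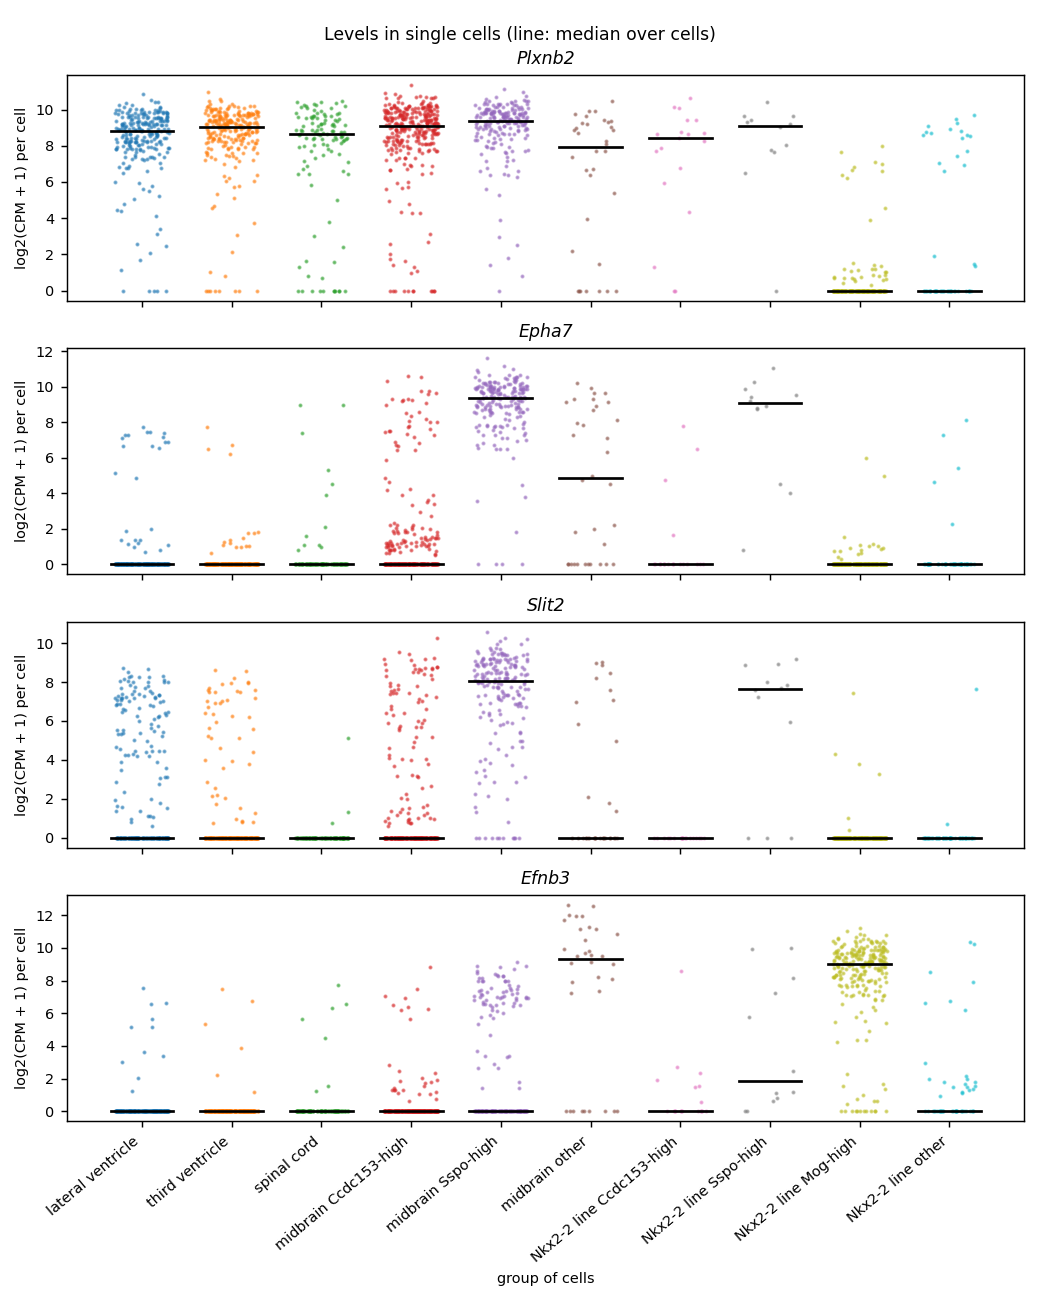
Levels of Plxnb2, Epha7, Slit2 and Efnb3 in single cells of the 10 groups. Each point is 1 cell on the scale log2(CPM + 1), and the black line is the median over cells. Sspo-high cells form a high band for Epha7 and Slit2, while a minority of Ccdc153-high midbrain cells reaches it, and Mog-high cells form a high band for Efnb3 and lie near 0 for Plxnb2.

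Block 6 of the midbrain, the first stretch of cell numbers of the second project, stood apart from the rest. Its 18 Sspo-high cells had 135 CPM of Epha7 where the other 6 blocks had 725 to 877, 60.9 CPM of Slit2 against 252 to 413, and 4.45 CPM of Sema6d against 122 to 177. Its 48 Ccdc153-high cells had the lowest Plxnb2 (295 CPM) and Plxnb1 (7.65 CPM) of their 7 blocks. Median genes detected were 4372 and 3952 in these cells, the fewest among the blocks of both groups. Leaving out each block in turn gave 14 to 18 members for this comparison. The first project alone gave 17, against 33.7% of all genes.

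The same contrast could be read in the Nkx2-2 line from 12 Sspo-high and 19 Ccdc153-high cells, in which 18 of 25 members differed, 13 higher and 5 lower, against 58% of all genes at these cell numbers (32.3% higher and 25.7% lower). Epha7 stood at 670 against 13.0 CPM, Slit2 at 257 CPM against 0 reads (at least 1743-fold higher, with 3 reads as the floor), and Efnb2 at 72.0 CPM against 0 reads (at least 488-fold higher). Unc5c stood at 67.2 CPM against 1 read (log2 10.42, 95% counting interval 8.78 to 12.05). Ephb1 (105 against 17.2 CPM), Ephb6 (75.9 against 20.6) and Efnb3 (163 against 24.4) were higher, and Efna1 (14.4 against 82.4) and Nrp2 (2.09 against 33.7) lower. In the Ccdc153-high cells of this line 1 cell held 99.1% of Ephb1, 99.8% of Ephb6 and 96.2% of Efnb3 reads, and in the Sspo-high cells 1 cell held all Efna1 reads. Each of these 2 groups held 1 cell that also reached the Mog limit. The 6 oligodendrocyte markers summed to 5744 CPM in the Ccdc153-high and 4129 CPM in the Sspo-high cells. In the Foxj1 line midbrain the sums were 88.6 and 62.6 CPM. The part of such cells in these values was not tested.

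Of the 16 members that differed in the Foxj1 line, 10 could be compared in the Nkx2-2 line, and 9 differed at least 2-fold the same way. They were Epha7, Slit2, Unc5c, Efnb2, Efnb3, Ephb1, Ephb6, Efna1 and Nrp2, and Plxnc1 was the exception. Over all genes 70.1% of 3015 did so. The rest of the 16, Efnb1, Epha5, Efna4, Plxna2, Sema5b and Sema6a, stayed under 10 CPM on both sides in the Nkx2-2 line. A gene high in Sspo-high cells can enter through that group alone, so the share does not test agreement between the lines. The 2 lines share no control cells, but each line is 1 sample. The Nkx2-2 line also had Sema3b, Sema4b (98.7 against 7.82 CPM), Plxna1, Plxna3, Plxna4 and Efna5 higher in Sspo-high cells and Sema3e (0.279 against 53.2 CPM), Robo2 and Unc5b lower, none of which differed 2-fold with enough reads in the Foxj1 line. Plxna1, Plxna3, Plxna4 and Efna5 stood at 10.1 to 13.1 CPM there, and 1 cell held all Robo2 and Unc5b reads of the Ccdc153-high cells.

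**Figure D4:**
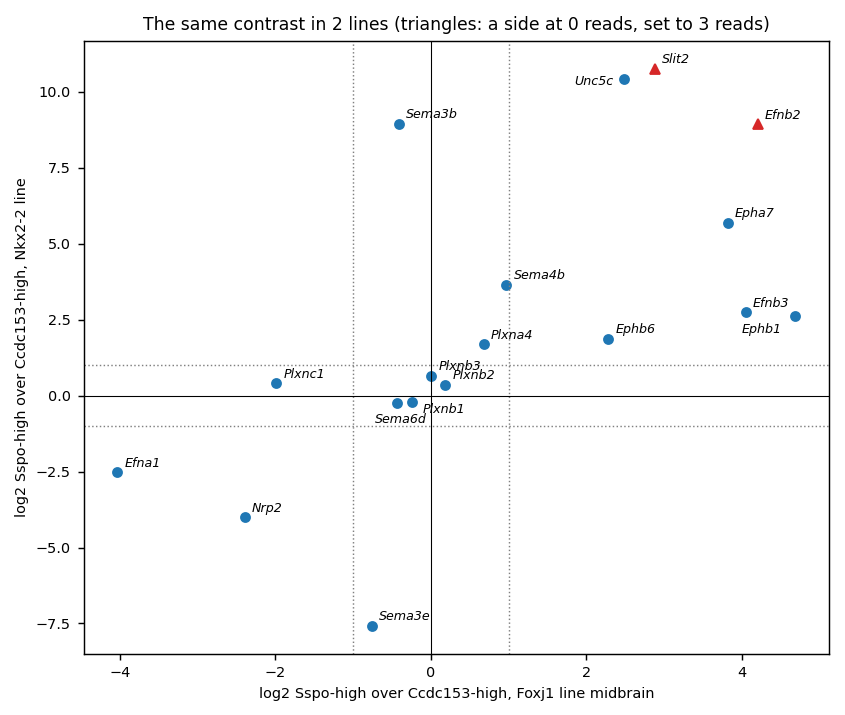
Log2 ratio of Sspo-high over Ccdc153-high cells in the Foxj1 line midbrain (horizontal) and in the Nkx2-2 line (vertical), for members that reach 10 CPM on a side in both. Dotted lines mark 2-fold, and triangles are lower bounds with 1 side at 0 reads. Epha7, Slit2, Unc5c, Efnb2, Efnb3, Ephb1 and Ephb6 lie at the upper right and Efna1 and Nrp2 at the lower left, while Sema3b and Plxnc1 have opposite signs.

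The Mog-high cells of the Nkx2-2 line had another set of members. Against midbrain Ccdc153-high cells 21 of 26 members differed, against 56.7% of all genes, so most genes differed between these cells of another type, line and mouse group, which cannot be told apart here. Blocks lay apart for 20 of the 21, against 41.7% of all genes. Among ligands, Efnb3 stood at 581 CPM (254 to 890 over 5 blocks) against 3.36 CPM, and in 95.1% of the cells. Sema4d, a transmembrane semaphorin known from oligodendrocytes, stood at 405 CPM (198 to 983) against 11.3 CPM and in 89.7% of cells. Sema6a stood at 214 CPM (147 to 439) against 17.6 CPM. The blocks of all 3 lay above every block of the Ccdc153-high cells. Reads of Sema4d and Efnb3 occurred together in 210 of the 243 cells.

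Among receptors of Mog-high cells, Plxnb3 stood at 303 CPM (260 to 370) against 101 CPM, Ephb1 at 172 CPM (147 to 217) against 1.62 CPM and Unc5b, a netrin receptor, at 167 CPM (147 to 216) against 0.188 CPM. They were found in 86.8%, 75.3% and 80.7% of Mog-high cells. Efna1 (73.3 CPM), Efna2 (29.2), Sema5a (24.1) and Sema4f (22.3) were higher too. The Sema4f level in Ccdc153-high cells was 1 read, and only 6.58% of the Mog-high cells held a read of it. Plxnb2 was 202-fold lower than in Ccdc153-high cells, and Epha7 (0.329 CPM), Slit2 (0.697), Sema5b (1.21) and Plxnc1 (0.411) were 155-fold, 62.6-fold, 24.2-fold and 41.6-fold lower. Sema4b (1.89 CPM), Nrp2 (3.70) and Sema3e (3.71) were 10.6-fold, 8.12-fold and 4.58-fold lower. Sema7a, the ligand of Plxnc1, reached its highest level in these cells, 9.16 CPM, in 15.2% of cells.

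Within the line, against its own 19 Ccdc153-high cells, 15 of 21 members differed, against 64.6% of all genes. Efnb3 (23.8-fold), Sema4d (192-fold), Sema6a (38.2-fold), Ephb1 (9.97-fold), Unc5b (5.04-fold) and Plxnb3 (3.71-fold) were again higher in Mog-high cells and Plxnb2 (137-fold) and Epha7 (39.5-fold) lower. The 33.1 CPM of Unc5b in those Ccdc153-high cells came from 1 cell. Among the 19 cells 1 also reached the Mog limit, and its part in these differences was not tested.

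Against the 53 other cells of the line 30 of 32 members differed, 8 higher and 22 lower in Mog-high cells, against 53.2% of all genes (11.5% higher and 41.7% lower). Blocks lay apart for 15 of the 30, against 27.6% of all genes. The 8 were Efnb3 (15.2-fold), Sema4d (15.5-fold), Ephb1 (19.7-fold), Unc5b (10.2-fold), Sema6a (8.83-fold), Sema4f (5.24-fold), Plxnb3 (3.17-fold) and Efna1 (2.35-fold). Sema5b was 177-fold lower, at 1.21 against 215 CPM, and Plxnb2 45.7-fold lower, at 2.99 against 137 CPM. The 3 of these 53 cells with much Mag, described next, had Efnb3 at 830, Plxnb3 at 656, Unc5b at 538 and Ephb1 at 146 CPM, where the Pdgfra and Gja1 cells had at most 20.2, 34.8, 0.142 and 6.83 CPM. With the marker limits divided by 2 the Unc5b ratio was 6.82 on the log2 scale in place of 3.35. The Plxnb3 call ended with the limits doubled (log2 0.92) and that of Efna1 without block 2 of the other cells (log2 0.88). Plxnb1 lay at the 2-fold limit and Plxna1 rested on 1 cell with 70.9% of its reads in the other cells. Without the 2% of cells with most genes the Sema4f difference fell to 0.11 on the log2 scale.

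**Figure D5:**
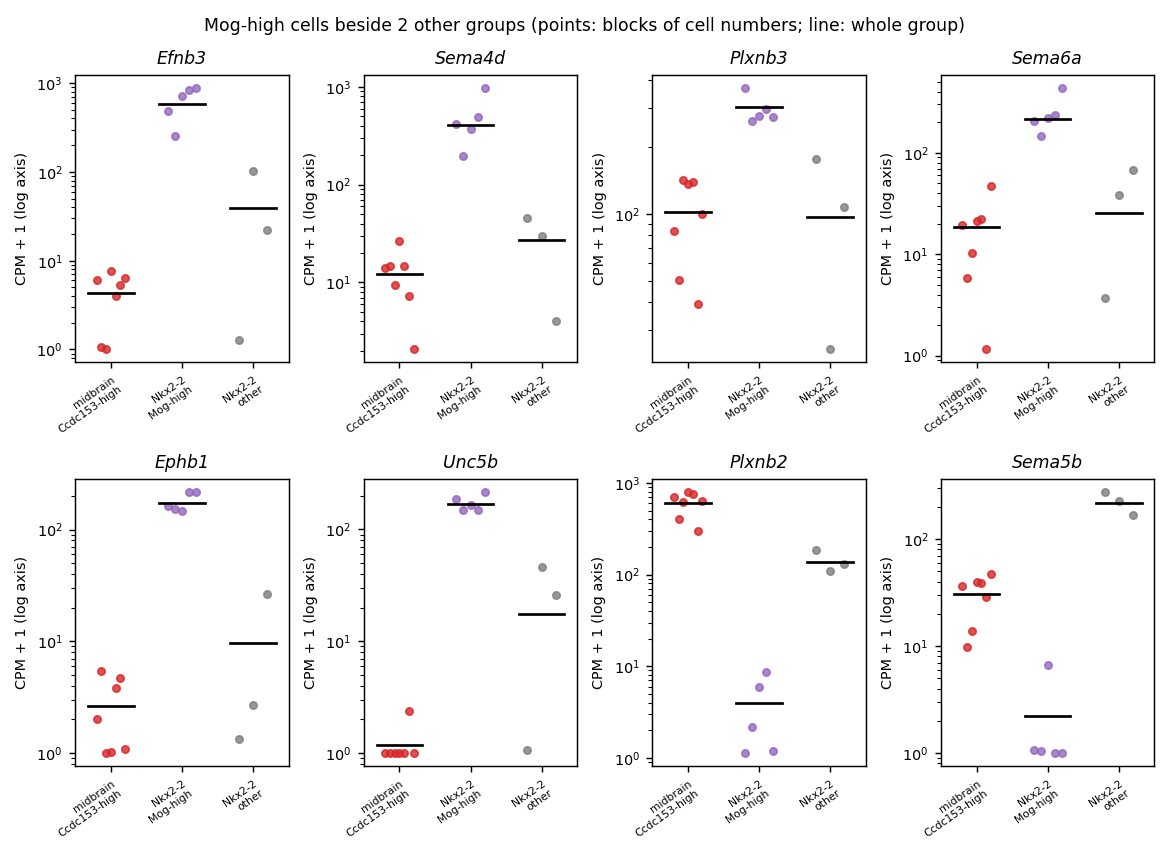
Levels of 8 members in midbrain Ccdc153-high cells of the Foxj1 line and in Mog-high and other cells of the Nkx2-2 line. Points are the blocks of cell numbers of 10 cells or more, the black line is the whole group, and the axis is CPM + 1 on a log scale. Mog-high blocks lie above both other groups for Efnb3, Sema4d, Plxnb3, Sema6a, Ephb1 and Unc5b and below them for Plxnb2 and Sema5b.

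The other cells of the Nkx2-2 line were a mixture, which was split by markers at 100 CPM after the values had been seen. In 28 cells with Pdgfra, the receptor that marks oligodendrocyte precursors, Sema5b stood at 322 CPM, Plxnb2 at 188, Sema5a at 102, Ephb6 at 78.6, Epha5 at 71.8, Unc5c at 63.6 and Sema3d at 58.1 CPM. In Mog-high cells those 7 genes stood at 1.21, 2.99, 24.1, 10.4, 0.337, 10.4 and 6.97 CPM. Another 21 cells had Gja1, a gap junction gene of astrocytes and ciliated cells, and no Pdgfra at that limit. They had Sema4a at 209 CPM, Sema6d at 203, Efna2 at 170, Plxnb1 at 141 and Sema4b at 105 CPM. Of the last 4 cells, 1 had Gpr17 and 3 had neither marker and 10634 CPM of Mag, a myelin gene.

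Of the 34 other cells of the Foxj1 line midbrain, 28 likewise had Gja1 and no C1qa at 100 CPM. Efnb3 was at 1239 CPM there and at 3.47 CPM in the 21 Gja1 cells of the Nkx2-2 line. Epha7 was at 283 against 2.41 CPM, Efna1 at 124 against 0.0709, Slit2 at 104 against 0.0709 and Unc5c at 96.5 CPM against 0 reads in the same 2 sets. Sema4a (64.2 against 209 CPM) and Efna2 (5.68 against 170 CPM) were lower in the Foxj1 line cells. Of the other astrocyte markers only Aqp4 (1121 and 808 CPM), Slc1a3 (3022 and 2792) and Aldh1l1 (520 and 562) were read in these sets. Those were near each other. Over all other cells of the Foxj1 line midbrain and of the Nkx2-2 line, Slc1a2 stood at 412 and 981 CPM. Agt stood at 1579 and 2157 CPM there and Gja1 at 1497 and 1614 CPM. Reads of Mag were found in 10.7% of the Foxj1 line Gja1 cells and in 90.5% of the Nkx2-2 line ones. Line, animals and dissection differ between the 2 sets, and their parts in the difference cannot be told apart. Over all 34 cells 24 of 30 members differed from Ccdc153-high cells, against 46.1% of all genes, and Efnb3 stood at 1290 CPM, in 73.5% of cells, with Nrp1 at 182 CPM.

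Other genes of the same pathways came from 3 lists, of which 100 of 112 genes were in the table. In the spinal cord 5 of 11 genes of the netrin and RGM list that could be compared were higher and 0 lower, with a median log2 of 0.78 against 0.02 for all genes, of which 8.02% were higher and 10.8% lower: Ntng1 (12.8 against 0.434 CPM), Rgmb (22.0 against 8.88), the secreted Lgi1 (99.5 against 41.4), the Unc5 ligand Ntn1 (22.7 against 10.9) and the receptor Neo1 (41.9 against 19.7). That list also holds Flrt, Lrig and Lgi genes, which are not netrins or RGM proteins. Of 44 intracellular partners 3 were higher and 1 lower in the cord, and of 17 co-receptors and proteases 4 and 4. In Sspo-high cells Dcc, a netrin receptor, stood at 11.0 against 0.680 CPM and Neo1 at 61.6 against 17.7 CPM, while Ntn1 stood at 0.0306 against 23.4 CPM and Rgma at 3.21 against 11.4 CPM. Of 47 intracellular partners that could be compared there, 10 were higher and 7 lower, and of 17 co-receptors and proteases 3 were higher and 5 lower, beside 18.3% and 14.9% of all genes. Among 45 intracellular partners 14 were higher and 14 lower in Mog-high than in midbrain Ccdc153-high cells, beside 17.5% and 39.3% of all genes, and Neo1 stood at 143 against 17.7 CPM.

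The number of members with a read in a cell had a median of 10 in midbrain Sspo-high, 9 in Mog-high, 8 in the lateral and the third ventricle, 7 in midbrain Ccdc153-high and 5 in spinal cord cells. After thinning to 20000 reads the medians were 7, 7, 5, 5, 4 and 3. Summed over all 55 members the median cell held 2467 CPM in midbrain Sspo-high cells, 2059 CPM in Mog-high cells, 1341 CPM in midbrain Ccdc153-high cells and 1031 CPM in the spinal cord.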

How the data were processed

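The authors deposited a table of integer read counts, 1 column a cell, and a second table of log2 values. The latter equalled log2 of the count divided by a size factor, plus 1, within 0.01 for 100% of values (size factors 0.0875 to 6.00). STAR 2.3.1o, Seurat 3 and mm10 are named in the submitters' processing notes. The counting tool, its use of strand and the annotation are not given in the sources used here. Each group's counts were added up and scaled to 1000000 reads (CPM) in Python 3.11.15 with numpy 2.4.6, pandas 2.3.3 and scipy 1.17.1, and drawn with matplotlib 3.10.9. All 1473 cells were used, with 108417 to 7182157 reads each. Doublets were not searched for, as wells had been sorted singly. Cells were not replicates, and with 1 sample per group no test was made between groups.

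A gene could be compared at 10 CPM on at least 1 side, and differed at 2-fold. A side with 0 reads was set to 3 reads and its ratio given as a lower bound. Poisson and Clopper-Pearson 95% intervals and floors cover counting error only, as the reads carry no molecular identifiers and 1 molecule can give many. Blocks were runs of 96 cell numbers that held 10 or more cells of a group. Midbrain cell numbers up to 480 were taken as the first project, on the assumption that numbers follow the wells in the titles. Exon lengths came from GENCODE vM21 and promoters from RefSeq, both on GRCm38. The code for the ratios was run on simulated cells with planted changes. Those cells held no differences between animals, plates or samples, so the run does not bear on such error. Alternatives covered size factors, per-cell means, the minimum level, class limits, high cells and left-out blocks. Members and lists were chosen with earlier results of these data known, and the promoters shown were picked after the levels were seen. All 55 members could be named by rule, first those that differed, and those that stayed under 10 CPM in every group by name and range.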

Additional observations from a re-analysis of the deposited data

Results flagged for a closer look

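Plxnc1 and Sema3b moved in opposite directions in the 2 lines when Sspo-high cells were set against Ccdc153-high cells. For Plxnc1 the log2 ratio was -1.99 in the Foxj1 line midbrain and 0.41 in the Nkx2-2 line, where 1 cell held 99.7% of the reads of its Ccdc153-high cells and 1 cell 74.7% of those of its Sspo-high cells. For Sema3b it was -0.41, under 2-fold, in the Foxj1 line and 8.95 in the Nkx2-2 line (95% counting interval 7.31 to 10.59). The latter ratio set 24.4 CPM in 2 of 12 Sspo-high cells against 1 read in the 19 Ccdc153-high cells. Neither difference between lines was tested, since each line is 1 sample.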

How the results depend on the processing

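No paired analysis was possible because each group holds 1 sample and no result comes from a test. The 96 pairs of a member and a comparison that differed in the main setting were followed, so they were chosen by the same values. For them 900 values were recomputed under the alternatives, and 267 of these did not move. Of the 900, 0 changed direction and 852 stayed at least 2-fold, and 76 of the 96 pairs did so under every setting run. The counts of members that differed depended most on the minimum level. Without a minimum they were 18 for the lateral ventricle, 24 for the third ventricle, 32 for the spinal cord, 21 for midbrain Ccdc153-high cells, 37 for Sspo-high cells and 42 for Mog-high against midbrain Ccdc153-high cells, where most added genes rest on few reads. At 5 CPM the lateral ventricle gave 7 (8.28% of all genes), and at 20 CPM it gave 2 (4.05%) and the spinal cord 5 (16.1%). With each block left out in turn the counts were 3 to 8 for the lateral ventricle, 6 to 9 for the third ventricle, 9 to 13 for the spinal cord, 6 to 8 for midbrain Ccdc153-high cells, 14 to 18 for Sspo-high cells, 18 to 23 for Mog-high against midbrain Ccdc153-high cells and 26 to 32 for Mog-high against other cells. The 8 for the lateral ventricle came without its block 3. No share of all genes was computed with blocks left out. The 16 Ccdc153-high midbrain cells at the Sspo limit were chosen after the data were seen. Dropping them gave 5 for the midbrain (5.42% of all genes) and 17 for Sspo-high cells (34.7%).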
